A study of Homo sapiens with 8 samples.

Results

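The genes described here are the transcriptional output end of the Hippo pathway, chosen by name: the coactivator genes YAP1 and WWTR1, the DNA-binding partner genes TEAD1, TEAD2, TEAD3 and TEAD4, and the target genes CCN1, CCN2, AMOTL2 and LATS2. All 10 were found by their symbol among the 17010 genes of the table, and all 10 passed the filter on low counts. The Hippo pathway is a kinase cascade in which the kinases LATS1 and LATS2 phosphorylate the proteins YAP and TAZ (TAZ is the product of WWTR1) and keep them out of the nucleus. YAP and TAZ do not bind DNA themselves and act through TEAD proteins at promoters and enhancers. CCN1 and CCN2 encode secreted matricellular proteins and are the usual readouts of this activity, whereas LATS2 and AMOTL2 are targets whose products restrain YAP and TAZ.

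RNA-seq was made from PC3, an established human prostate cancer cell line, kept for 72 h in low-attachment 3D culture with 3% serum. Cells received control siRNA or siRNA against SF3B2, a subunit of the SF3b complex that recognises the intron branch point, for 72 h, or pladienolide B, a small molecule that binds SF3b and blocks splicing, at 0.5 µM for 24 h, or its vehicle DMSO (for a time not given in the sources used here). Each of the 4 groups had 2 libraries. The labels do not tell whether replicate libraries are separate cultures, and p-values therefore rest on a spread that may be technical. In bulk samples fewer cells of a type and less RNA per cell cannot be told apart.

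Total counts ran from 35461248 to 72983584 per library, and the median over genes was 223.5 and 227 reads with pladienolide B and 871 to 1399.5 in the other 6 libraries. SF3B2 itself lay at 36.4 and 30.1 CPM (reads of a gene scaled to a common library size, here by TMM) with its siRNA and at 228 in both control siRNA libraries. Its log2 fold change was −2.78 ± 0.24 (SE) with adjusted p = 0.0513 by edgeR and adjusted p = 1.40e-24 by DESeq2, the highest adjusted p over the alternatives being 1.00. The epithelial keratin genes KRT8 and KRT18 and the epithelial adhesion gene EPCAM were listed, with lower TPM (reads scaled by gene length and library) in the drug libraries. KRT8 lay at 564 to 710 TPM without and 102 to 140 with the drug, KRT18 at 667 to 899 and 199 to 265, and EPCAM at 40.4 to 62.9 and 14.9 to 24.0. Of 11 markers of fibroblasts, endothelium, leukocytes and smooth muscle 3 were listed (COL1A1, PECAM1 and CD68), and every listed gene had at least 1 read in each library. Their summed level was 164 to 168 TPM with control siRNA, 120 to 128 with SF3B2 siRNA, 179 to 182 with DMSO and 25.2 to 68.8 with pladienolide B, and its part in the results below was not tested.

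Promoter sequences are shown because TEAD proteins read the short motif GGAATG, here searched on both strands (CATTCC on the other strand). RefSeq promoters of build GRCh38.p14, each 300 bases from 250 before to 50 after a gene start, were at hand for 7 of the 10 genes, with 10 starts in all, and CCN1, TEAD1 and TEAD4 had no entry. The motif was present at 4 of the 10 starts, those of CCN2, AMOTL2 (the downstream of its 2 starts), LATS2 and YAP1, and in 14% of all 35116 promoters of that length. Counted from the start, with bases before it negative, the 3 copies of CCN2 begin at −169, −104 and −95, the copy of AMOTL2 at −69 and that of YAP1 at −162. In LATS2 the motif begins at base 10 of the transcribed part. An AP-1 motif (TGANTCA, both strands) and a CArG box (the site of serum response factor) were present at 0 of the 10 starts, and in 7.71% and 1.29% of all promoters. A match is a run of letters and not a measured binding site. The 250 bases before 3 of these starts are printed 5′ to 3′ on the strand of the gene, with the GGAATG or CATTCC letters in capitals, CCN2 from chr6:131951373-131951622 (minus strand), AMOTL2 from chr3:134374448-134374697 (minus strand) and YAP1 from chr11:102110197-102110446 (plus strand).
CCN2: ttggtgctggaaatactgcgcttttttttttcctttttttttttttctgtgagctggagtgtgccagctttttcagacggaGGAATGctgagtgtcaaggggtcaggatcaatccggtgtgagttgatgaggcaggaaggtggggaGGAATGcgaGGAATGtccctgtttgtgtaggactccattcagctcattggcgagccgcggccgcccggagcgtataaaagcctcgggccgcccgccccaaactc
AMOTL2: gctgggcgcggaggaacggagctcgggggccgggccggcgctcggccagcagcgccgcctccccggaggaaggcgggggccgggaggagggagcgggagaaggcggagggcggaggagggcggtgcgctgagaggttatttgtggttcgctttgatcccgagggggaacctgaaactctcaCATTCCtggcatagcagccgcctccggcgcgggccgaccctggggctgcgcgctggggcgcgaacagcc
YAP1: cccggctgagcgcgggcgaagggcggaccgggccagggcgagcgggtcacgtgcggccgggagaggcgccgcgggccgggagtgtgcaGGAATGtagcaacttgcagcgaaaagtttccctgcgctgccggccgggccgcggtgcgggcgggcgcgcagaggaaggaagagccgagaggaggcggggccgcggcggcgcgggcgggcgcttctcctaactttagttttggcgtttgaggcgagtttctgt

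The genes differ widely in length. CCN1 (chromosome 1, 85580761 to 85584589, plus strand) and CCN2 (chromosome 6, 131948176 to 131951372, minus strand) span 3829 and 3197 bp with 5 exons each in the GENCODE reference transcript (GRCh38). AMOTL2 (chromosome 3, 134355347 to 134375479, minus strand) has 10 exons over 20133 bp and LATS2 (chromosome 13, 20973036 to 21061586, minus strand) 8 exons over 88551 bp. YAP1 (chromosome 11, 102110447 to 102233424, plus strand) has 9 exons over 122978 bp and WWTR1 (chromosome 3, 149517235 to 149736714, minus strand) 7 exons over 219480 bp. The 4 TEAD genes have 13 exons each, over 21863 bp for TEAD2, 23483 bp for TEAD3, 81347 bp for TEAD4 and 270317 bp for TEAD1. Exons of YAP1, WWTR1, TEAD2 and CCN2 overlap those of genes on the opposite strand, and exons of AMOTL2 overlap a pseudogene, RPL39P5, on the same strand. The strand setting of the counting (not given in the sources used here) makes the levels of YAP1, WWTR1, TEAD2 and CCN2 uncertain. For AMOTL2 the overlap on the same strand does so under any strand setting. Of these partners only WWTR1-AS1 was listed, at 0.441 to 0.83 CPM without the drug and at 8.96 and 1.57 CPM with it.

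In the 4 control libraries (control siRNA and DMSO) the most abundant transcript per length was that of CCN1, at 263 to 398 TPM, followed by WWTR1 at 115 to 166 TPM. TEAD2 lay at 71.6 to 76.4 TPM, ahead of CCN2 (44.04 to 71.3 TPM) and YAP1 (43.8 to 59.3 TPM), which overlapped each other. AMOTL2 came next at 26.9 to 38.9 TPM. TEAD1 and TEAD3 overlapped, at 18.6 to 22.1 and 18.0 to 19.7 TPM, and so did TEAD4 (9.67 to 12.4 TPM) and LATS2 (7.83 to 9.87 TPM), the lowest of the set. PC3 cells in this culture thus held more WWTR1 than YAP1 transcript in every control library, and TEAD2 was the most abundant TEAD. With pladienolide B the order was CCN1, AMOTL2, CCN2, LATS2, YAP1, WWTR1, TEAD2, TEAD3, TEAD1 and TEAD4 by mean TPM, so that LATS2 moved from place 10 to place 4 and WWTR1 from place 2 to place 6. The range of TEAD1 (1.04 to 2.33 TPM) overlapped those of TEAD3 and TEAD4 there, and no other neighbours overlapped.

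**Figure D1:**
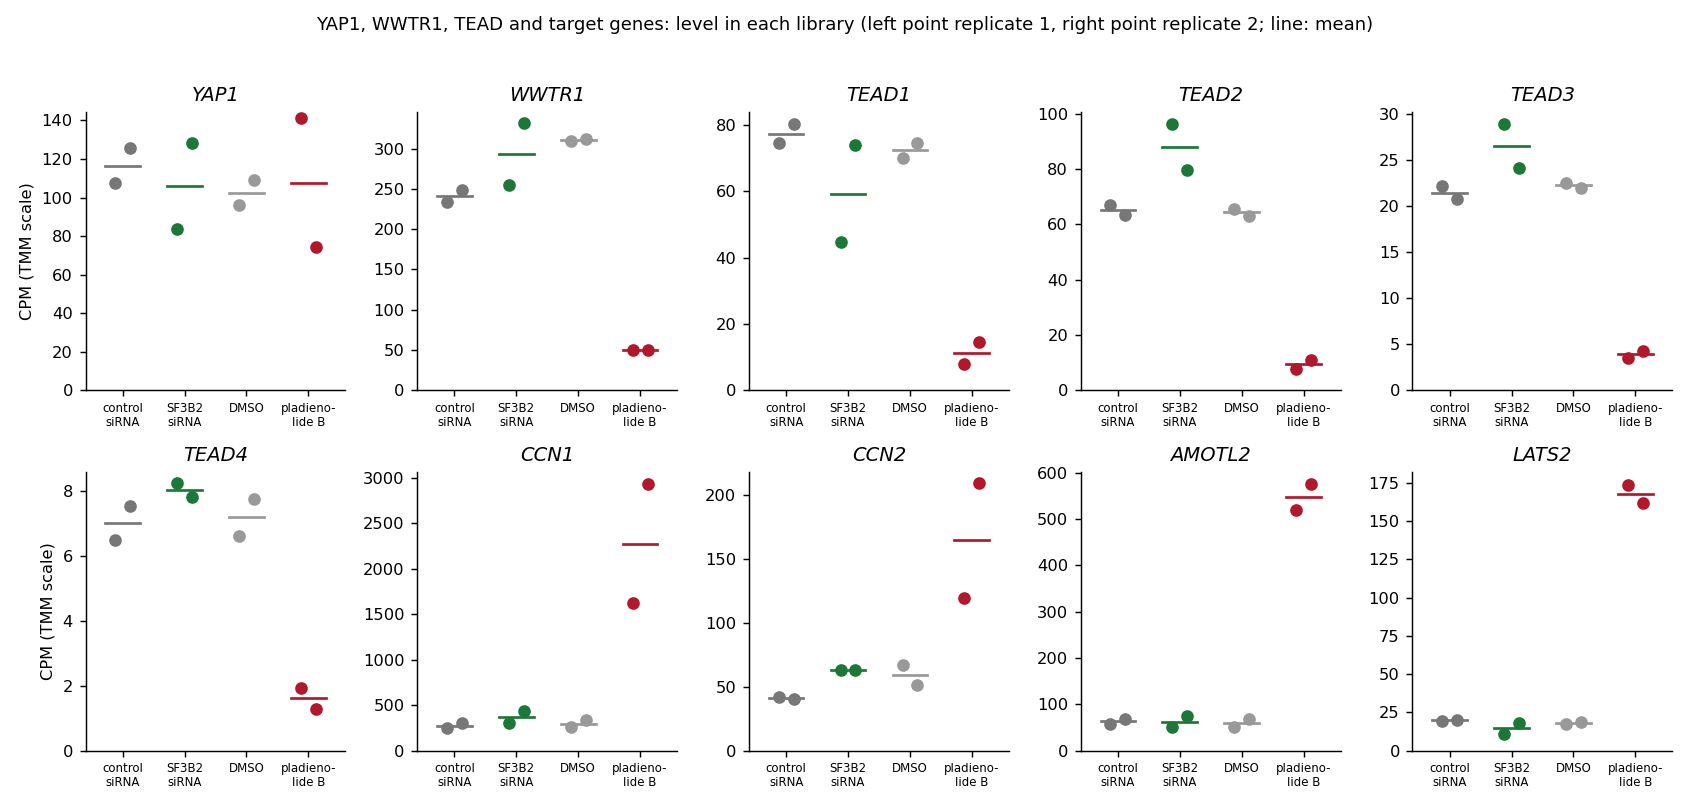
Level of each of the 10 genes in all 8 libraries, in CPM on the TMM scale (linear axes from 0, a different range for each gene). Points are libraries, with replicate 1 left and replicate 2 right, and lines are group means. The 2 pladienolide B libraries lie below the other 6 for WWTR1 and the 4 TEAD genes and above them for CCN1, CCN2, AMOTL2 and LATS2, and straddle them for YAP1.

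On the TMM scale WWTR1 and all 4 TEAD genes were lower with pladienolide B and all 4 target genes higher, while YAP1 did not pass the test. The unscaled read counts of CCN2 did not separate, at 4124 and 4506 with DMSO and 3130 and 4911 with the drug. The counts are per gene and were not split into spliced and unspliced RNA. Of the 10 genes 9 were called by edgeR at an adjusted p under 0.05, 4 higher and 5 lower, and 9 by DESeq2, which called 67.8% of all genes. Most of the transcriptome was called in this comparison, 68.0% of 16488 genes (32.5% higher and 35.5% lower), so the count itself says little about these genes. The levels of the drug and DMSO libraries did not overlap for 9 of the 10 genes, YAP1 being the exception, and for 82.7% of all genes tested.

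WWTR1, the gene of the coactivator TAZ, lay at 310 and 313 CPM with DMSO and at 50.1 CPM in both drug libraries. The drug libraries lay close together and far below every other library, the lowest of which held 234 CPM. The log2 fold change was −2.63 ± 0.21 (SE, edgeR adjusted p = 3.27e-05, and 1.84e-26 to 0.00137 over the alternatives). YAP1, its paralogue, lay at 95.9 and 109 CPM with DMSO and at 141 and 74.1 CPM with the drug. On this scale the drug libraries stood on either side of both DMSO libraries. In deposited TPM they lay at 32.7 and 20.4, below DMSO at 43.8 and 52.0 and below the lowest of the other 6 libraries at 34.9. Its log2 fold change was 0.07 ± 0.34 (adjusted p = 0.863, and 0.0612 to 0.993 over the alternatives), a spread too wide to place the gene as higher, lower or level. The sign changed with the scaling, being −0.81 with library size alone, and with the library left out, being −0.47 without pladienolide B replicate 1, 0.45 without replicate 2 and −0.031 without DMSO replicate 1.

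The ratio of the paralogues within a library does not depend on how libraries are scaled. YAP1 made up 22.2% and 23.9% of the summed YAP1 and WWTR1 TPM with DMSO and 72.9% and 58.0% with pladienolide B. With control siRNA the share was 29.5% and 31.6%, and with SF3B2 siRNA 23.3% and 26.0%. Only the drug libraries held more YAP1 than WWTR1. This shows unequal change of the pair, not which of them changed. The summed TPM of the pair was 197 and 218 with DMSO and 44.9 and 35.3 with the drug.

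All 4 TEAD genes, which encode the DNA-binding partners, fell. TEAD1 lay at 70.2 and 74.7 CPM with DMSO and at 8.05 and 14.7 CPM with the drug (log2 fold change −2.67 ± 0.36, edgeR adjusted p = 0.000322). TEAD2 lay at 65.7 and 63.2 CPM with DMSO and at 7.90 and 10.9 CPM with the drug (−2.78 ± 0.24, edgeR adjusted p = 3.92e-05). In neither gene did a drug library come near the lowest library without the drug, 44.6 CPM for TEAD1 and 63.2 CPM for TEAD2. TEAD3 lay at 22.5 and 21.98 CPM against 3.51 and 4.30 CPM (−2.51 ± 0.23, edgeR adjusted p = 5.20e-05). TEAD4 lay at 6.61 and 7.78 CPM against 1.95 and 1.28 CPM, from 51 and 30 reads with the drug (−2.15 ± 0.30, edgeR adjusted p = 0.00036). The 4 log2 fold changes ran from −2.78 to −2.15. Over the alternatives the adjusted p reached at most 0.00292 for TEAD1, 0.00155 for TEAD2, 0.00203 for TEAD3 and 0.00814 for TEAD4.

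TEAD transcripts summed to 122 and 130 TPM with DMSO and to 8.11 and 12.1 TPM with pladienolide B. TEAD2 remained the most abundant, with 61.4% and 58.9% of the sum under DMSO and 52.6% and 54.0% under the drug. TEAD1 held 15.3% and 16.4% under DMSO and 12.9% and 19.2% under the drug, and TEAD3 15.4% and 15.2% against 17.6% in both drug libraries. TEAD4 held 7.96% and 9.57% under DMSO and 17.0% and 9.17% under the drug, the first of these from 51 reads. TEAD2 held more of the sum than any other TEAD gene in all 8 libraries.

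**Figure D2:**
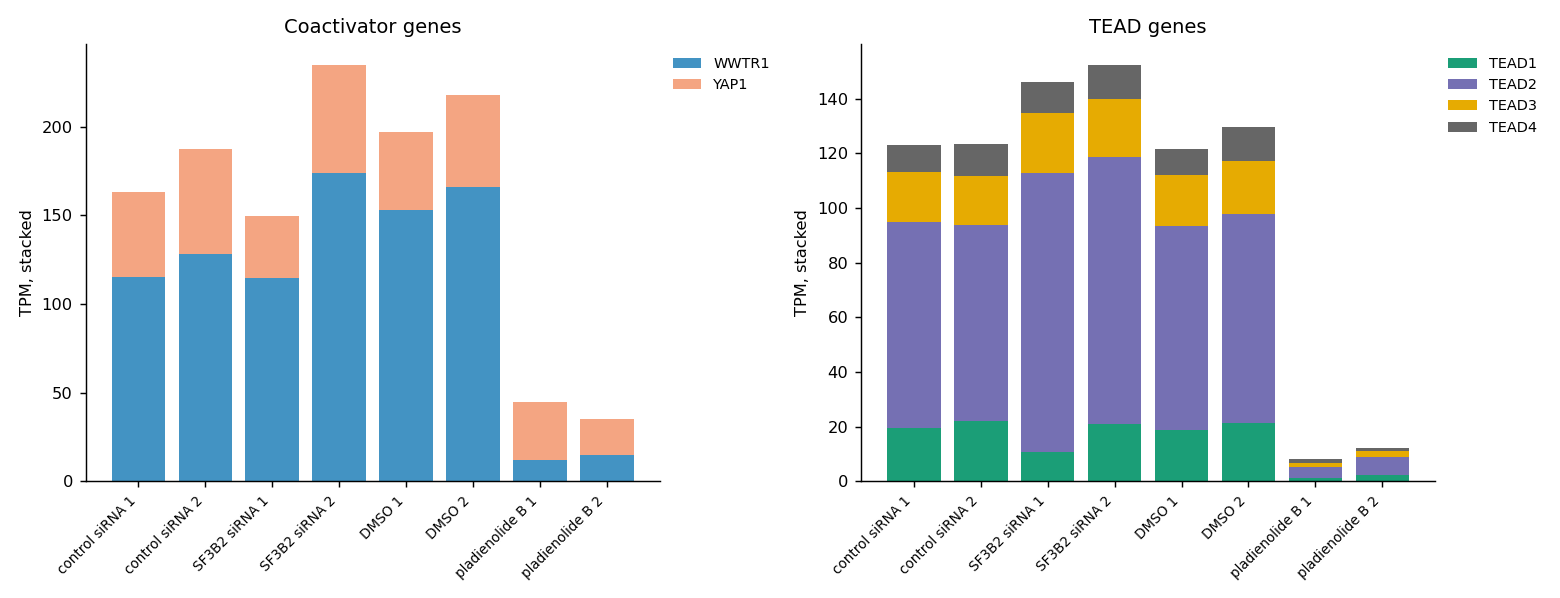
Stacked TPM of the coactivator genes WWTR1 and YAP1 (left) and of the 4 TEAD genes (right) in each library, on linear axes from 0. The coactivator sum is 150 to 235 TPM in the 6 libraries without the drug and 44.9 and 35.3 TPM with it, and the TEAD sum 122 to 152 TPM against 8.11 and 12.1 TPM.

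On the TMM scale the 4 target genes rose. CCN1 lay at 254 and 339 CPM with DMSO and at 1620 and 2925 CPM with the drug (log2 fold change 2.94 ± 0.37, edgeR adjusted p = 0.000253, and 6.02e-16 to 0.00399 over the alternatives). Both drug libraries lay above the highest of the other 6, 437 CPM, and they differed from each other more than the DMSO libraries did. CCN2 lay at 67.0 and 51.1 CPM with DMSO and at 119 and 209 CPM with the drug (1.48 ± 0.29, edgeR adjusted p = 0.00243, and 3.02e-06 to 0.0929 over the alternatives). This was the smallest change of the 9 called, and it depended on the scaling, with a value of 0.62 and adjusted p = 0.0929 with library size alone. In deposited TPM the first drug library, at 62.5, lay between the DMSO libraries at 71.3 and 58.5, and the second lay above both at 133.

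AMOTL2, a member of the angiomotin family that binds YAP, lay at 50.1 and 67.2 CPM with DMSO and at 519 and 575 CPM with the drug. Its log2 fold change was 3.22 ± 0.28 (edgeR adjusted p = 4.28e-05). LATS2, the kinase gene, lay at 17.1 and 19.0 CPM with DMSO and at 174 and 162 CPM with the drug (3.22 ± 0.27, edgeR adjusted p = 3.80e-05). For both genes the drug libraries lay close together and several-fold above the highest of the other 6, 74.3 CPM for AMOTL2 and 20.3 CPM for LATS2. Over the alternatives the adjusted p reached at most 0.00134 for AMOTL2 and 0.00132 for LATS2. Of all genes tested 7.17% had a higher log2 fold change than AMOTL2, 7.24% than LATS2, 8.95% than CCN1 and 23.8% than CCN2. At the other end 9.22% of genes had a lower value than TEAD2, 10.2% than TEAD1, 10.5% than WWTR1, 11.7% than TEAD3 and 15.8% than TEAD4.

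In the authors' deposited table these 9 genes also passed an adjusted p of 0.05 with pladienolide B, with signed folds from −7.18 for TEAD2 to 8.91 for AMOTL2, and YAP1 had a fold of 1.00 with an adjusted p of 1. The authors' comparison rests on the same libraries, and the share of all genes that passed in it was not counted. Scaling set the size of each value, since over all genes the log2 fold change had a median of −0.11 under TMM, 0.051 under RLE and −0.97 with library size alone. Relative to zero WWTR1 and the TEAD genes were lower and CCN1, CCN2, AMOTL2 and LATS2 higher under each of these 3 scalings. The TMM factors were 0.632 and 0.663 for the drug libraries and 1.13 to 1.21 for the others.

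**Figure D3:**
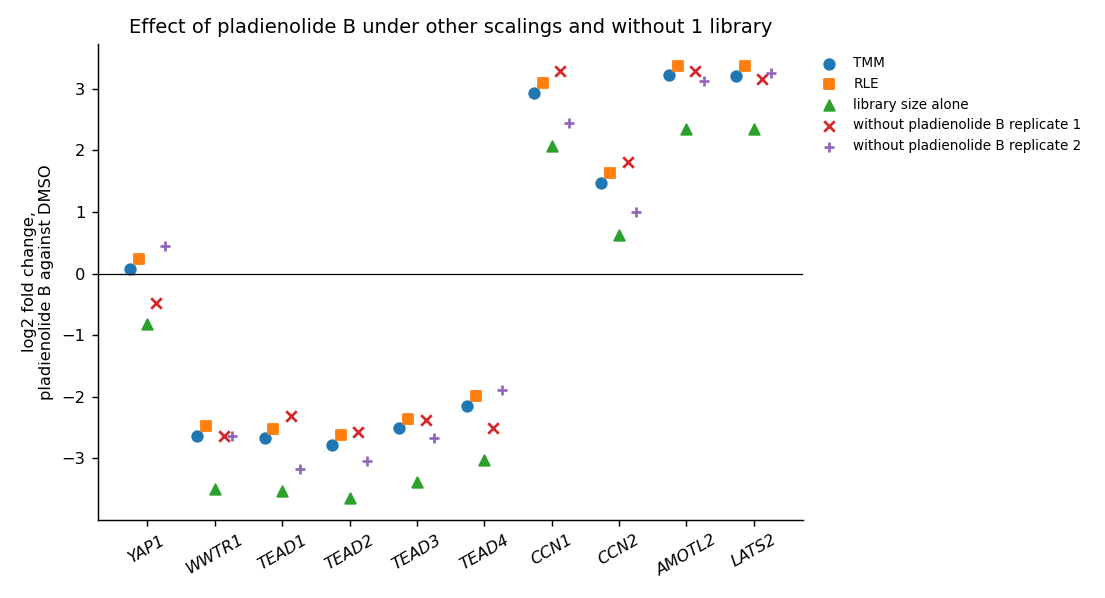
Log2 fold change of each gene with pladienolide B against DMSO under 3 scalings and without 1 of the drug libraries. Values of 9 genes keep their sign in all 5 settings, from −3.64 for TEAD2 to 3.38 for AMOTL2, and those of YAP1 run from −0.81 to 0.45.

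With SF3B2 siRNA none of the 10 genes passed the test. By edgeR 0 of 10 were called and 0 had an unadjusted p under 0.05, against 0 of 16488 genes called (0%) and 638 at an unadjusted p under 0.05 (3.87%) over all genes, and DESeq2 called 0 of the 10 and 33 genes in all (0.194%). CCN2 had the largest value, with 41.7 and 40.0 CPM under control siRNA and 63.2 and 63.1 CPM under SF3B2 siRNA. Replicates lay close together and the groups did not overlap, yet the DMSO libraries at 67.0 and 51.1 CPM also lay above control siRNA. Its log2 fold change was 0.63 ± 0.29 (edgeR adjusted p = 1.00, and 0.231 to 1.00 over the alternatives).

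TEAD2 lay at 67.1 and 63.5 CPM with control siRNA and at 96.2 and 79.7 CPM with SF3B2 siRNA, above all 6 other libraries (0.43 ± 0.22, edgeR adjusted p = 1.00). TEAD3 stood in the same order, at 22.2 and 20.8 CPM against 28.9 and 24.2 CPM (0.31 ± 0.21, edgeR adjusted p = 1.00). LATS2 lay at 19.1 and 20.3 CPM against 11.1 and 17.7 CPM (−0.45 ± 0.25, edgeR adjusted p = 1.00) and TEAD1 at 74.5 and 80.3 CPM against 44.6 and 74.0 CPM (−0.39 ± 0.33, edgeR adjusted p = 1.00). In these last 2 genes SF3B2 siRNA replicate 1 stood apart from replicate 2, which lay near the controls. WWTR1 lay at 234 and 248.7 CPM against 255 and 331 CPM (0.28 ± 0.20), CCN1 at 243 and 303 CPM against 302 and 437 CPM (0.44 ± 0.35) and TEAD4 at 6.48 and 7.56 CPM against 8.24 and 7.81 CPM (0.19 ± 0.27). YAP1 lay at 108 and 125 CPM against 83.5 and 128 CPM (−0.14 ± 0.34) and AMOTL2 at 58.2 and 69.1 CPM against 51.0 and 74.3 CPM (−0.02 ± 0.26). Levels of the 2 groups did not overlap for 7 of the 10 genes, YAP1, CCN1 and AMOTL2 being the exceptions, and for 39.1% of all genes tested.

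Between control siRNA and DMSO 0 of the 10 genes were called by edgeR or DESeq2 and 0 had an unadjusted p under 0.05, against 0% of genes called and 0.922% at an unadjusted p under 0.05 over all genes by edgeR. Levels did not overlap for 3 of the 10 genes and for 34.8% of all genes tested. The largest values were those of CCN2 (−0.53 ± 0.28) and WWTR1 (−0.37 ± 0.20), both lower with control siRNA. This comparison shares the control siRNA libraries with that of SF3B2 siRNA.

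**Figure D4:**
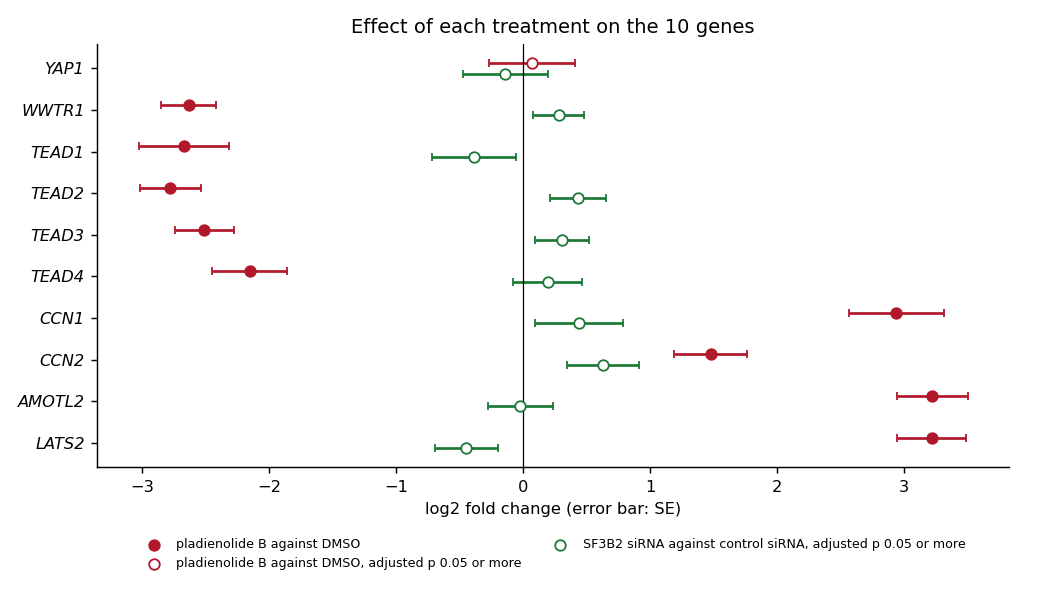
Log2 fold change of the 10 genes with pladienolide B against DMSO and with SF3B2 siRNA against control siRNA, with SE bars, 2 libraries a group. Filled points have an edgeR adjusted p under 0.05. Drug values run from −2.78 (TEAD2) to 3.22 (AMOTL2), and siRNA values from −0.45 (LATS2) to 0.63 (CCN2).

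The effects of the treatments were then compared with each other as a difference of log2 fold changes (SF3B2 siRNA minus pladienolide B). By edgeR 8 of the 10 genes differed, against 53.7% of all genes tested. For WWTR1 and the 4 TEAD genes the difference was positive, from 2.29 ± 0.48 for TEAD1 to 3.21 ± 0.32 for TEAD2. For CCN1, AMOTL2 and LATS2 it was negative, from −2.50 ± 0.50 for CCN1 to −3.66 ± 0.36 for LATS2. CCN2 (−0.85 ± 0.40, edgeR adjusted p = 0.109, and 0.00429 to 0.955 over the alternatives) and YAP1 (−0.21 ± 0.47, edgeR adjusted p = 0.727) did not pass. Without pladienolide B replicate 1 the difference in CCN2 passed, at −1.19 with adjusted p = 0.00429. Treatment times differed, 72 h for the siRNA and 24 h for the drug.

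The other Hippo genes moved both ways with pladienolide B. Of 31 genes on a list of kinases, adaptors and cofactors, 29 were in the table and tested, 9 rose and 11 fell by edgeR, and 9 did not pass. Their 69.0% called lay near the 68.0% of all genes, and their median log2 fold change was −0.41 against −0.11 over all genes. With library size alone 5 rose and 17 fell, and 20.1% of all genes rose and 51.2% fell, so the split depends on the scaling for the list as for all genes. The kinase LATS1 rose with its paralogue LATS2, from 23.0 and 30.2 CPM to 169 and 259 CPM (3.01 ± 0.36, edgeR adjusted p = 0.000177, and 1.81e-16 to 0.00298 over the alternatives). The kinases one step above, STK3 and STK4, had values of −0.28 ± 0.29 and −0.48 ± 0.28 and did not pass, and their scaffold SAV1 rose (1.43 ± 0.29). MOB1B, a LATS coactivator, fell (−2.78 ± 0.49), whereas its paralogue MOB1A did not pass (−0.41 ± 0.34). MOB1B lay at 46.4 and 47.2 CPM with DMSO and at 3.32 and 10.4 CPM with the drug. Exons of MOB1B overlap DCK on the same strand, and those of LATS1, STK3, SAV1, TNIK, TAOK1, AMOTL1, AJUBA, LIMD1, STRN, STRN3 and DCHS1 overlap other genes on the same or the opposite strand, which makes their counts uncertain. With library size alone STK3 (−1.16, edgeR adjusted p = 0.00836), STK4 (−1.35, edgeR adjusted p = 0.00469) and MOB1A (−1.27, edgeR adjusted p = 0.0149) were called lower and SAV1 lost its call (0.55, edgeR adjusted p = 0.126). MOB1A was also called lower without pladienolide B replicate 2 (−1.12, edgeR adjusted p = 0.000648).

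The TAO kinases, which can activate the cascade, split. TAOK2 rose from 68.9 and 71.0 CPM to 538 and 678 CPM (3.12 ± 0.22, edgeR adjusted p = 2.11e-05) and TAOK1 rose (1.30 ± 0.43), whereas TAOK3 fell (−2.11 ± 0.23). TNIK and MAP4K4, of the MAP4K and related kinases, fell, TNIK from 15.2 and 18.4 CPM to 0.992 and 1.06 CPM (−4.03 ± 0.34, edgeR adjusted p = 4.06e-05). Of the membrane-linked activators NF2 rose (1.40 ± 0.29), and WWC1 and FRMD6 fell (−2.41 ± 0.28 and −2.14 ± 0.26). AMOTL1, of the same family as AMOTL2, fell from 34.2 and 41.0 CPM to 7.17 and 8.94 CPM (−2.22 ± 0.32, edgeR adjusted p = 0.00051), in contrast with the rise of AMOTL2. The LIM proteins that bind LATS kinases also split, with AJUBA (1.88 ± 0.22) and WTIP (1.51 ± 0.31) higher and LIMD1 (−1.56 ± 0.43) lower. STRN3, a subunit of the STRIPAK phosphatase complex, rose (1.90 ± 0.29) and its paralogue STRN fell (−1.54 ± 0.29). DCHS1, a protocadherin of the FAT pathway, had the highest value of the list (5.05 ± 0.53, edgeR adjusted p = 0.000102) and was named after its values were seen, since its mean level was below the 5 CPM asked for. The call of TAOK1 was lost with library size alone (0.44, edgeR adjusted p = 0.403), without DMSO replicate 1 or 2 (adjusted p = 0.116 and 0.0922) and without pladienolide B replicate 2 (0.55, adjusted p = 0.177). That of LIMD1 was lost without DMSO replicate 2 (−1.35, edgeR adjusted p = 0.0618), and those of NF2 (0.54, adjusted p = 0.136) and WTIP (0.64, adjusted p = 0.0866) with library size alone.

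Among other genes known as YAP or TEAD targets more fell than rose with pladienolide B, while CCN1, CCN2, AMOTL2 and LATS2 rose. Of 23 genes on the list 22 were in the table and tested, 4 rose and 14 fell by edgeR, and 4 did not pass. The 63.6% that fell compares with 35.5% of all genes, and the median log2 fold change was −1.24 against −0.11 over all genes. The number that fell was 11 of 22 with only the 2 groups in the fit, where 4933 of 16263 genes fell. The median log2 fold change of the list was −1.30 without DMSO replicate 2, against −0.075 over all genes. Without pladienolide B replicate 1 these medians were −1.02 and −0.15. With library size alone 2 rose and 16 fell, against 20.1% and 51.2% of all genes. NUAK2, a kinase of the AMPK family, rose from 1.43 and 2.31 CPM to 66.2 and 99.0 CPM (5.46 ± 0.39, edgeR adjusted p = 2.29e-05), the highest value of the list. EDN1, which encodes endothelin 1, rose from 4.58 and 9.79 CPM to 30.6 and 68.0 CPM (2.77 ± 0.50, edgeR adjusted p = 0.00151), and FJX1, a relative of the fly gene four-jointed, rose by 1.54 ± 0.31, a call lost with library size alone (0.67, adjusted p = 0.0948). GADD45A, a stress response gene, had a value of 1.06 ± 0.35 (edgeR adjusted p = 0.0259) that lost its call with library size alone (0.18, adjusted p = 0.629), without DMSO replicate 2 (0.80, adjusted p = 0.163) and without pladienolide B replicate 1 (0.69, adjusted p = 0.107).

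Among those that fell, NT5E, the ectonucleotidase CD73, went from 89.0 and 91.5 CPM to 2.37 and 8.55 CPM (−4.05 ± 0.56, edgeR adjusted p = 0.000386). DOCK5, a guanine nucleotide exchange factor, fell from 55.8 and 70.4 CPM to 6.87 and 9.49 CPM (−2.95 ± 0.30, edgeR adjusted p = 8.93e-05). The growth factor gene AREG fell from 25.01 and 16.4 CPM to 2.98 and 3.06 CPM (−2.78 ± 0.43, edgeR adjusted p = 0.000696). IGFBP3, which encodes a binding protein of insulin-like growth factors, varied most, at 44.3 and 111 CPM against 2.14 and 20.8 CPM (−2.77 ± 1.01, edgeR adjusted p = 0.039). Its call was lost with only the 2 groups in the fit (adjusted p = 0.0708), without SF3B2 siRNA replicate 1 or 2 (0.0626 and 0.0637), without DMSO replicate 2 (−1.97, adjusted p = 0.165) and without pladienolide B replicate 1 (−1.91, adjusted p = 0.075). Its value without pladienolide B replicate 2 was −5.20. ANKRD1, a cardiac ankyrin repeat protein often used beside CCN1 and CCN2 as a readout, had a value of −1.87 ± 0.53 (edgeR adjusted p = 0.0139). Its call was lost without DMSO replicate 2 (−1.30, adjusted p = 0.0951) and without pladienolide B replicate 1 (−1.47, adjusted p = 0.0663). Of those that did not pass, AXL had a value of −0.88 ± 0.49, ANLN of −0.56 ± 0.41 and TGFB2 of 0.75 ± 0.40. AXL was called lower without pladienolide B replicate 1 (−2.10, edgeR adjusted p = 6.35e-05) and with library size alone (−1.77, adjusted p = 0.0117), and ANLN with library size alone (−1.45, adjusted p = 0.0153). TGFB2 was called higher with the replicate block (0.76, edgeR adjusted p = 0.0108). Exons of AXL and ANLN overlap genes on the opposite strand.

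**Figure D5:**
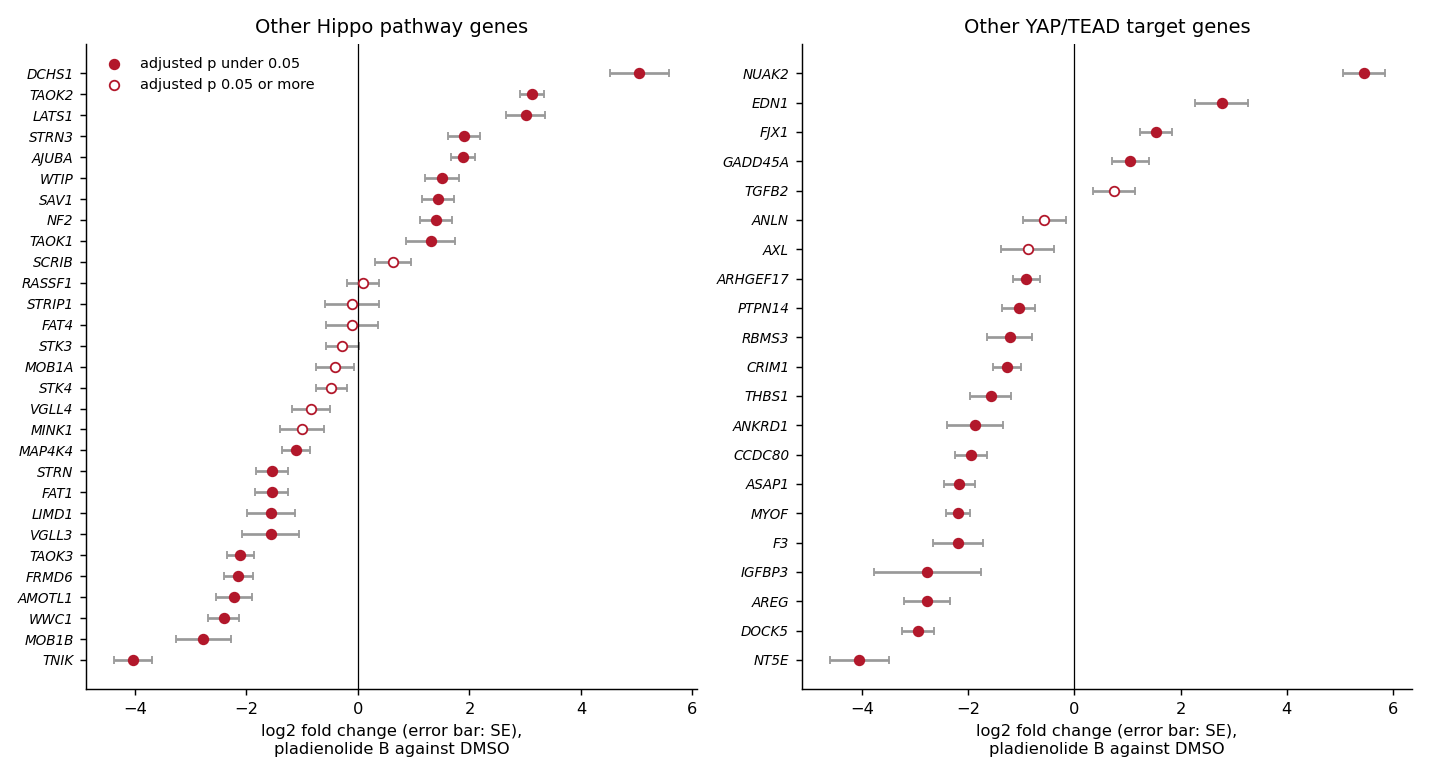
Log2 fold change with pladienolide B against DMSO, with SE bars, of the 29 other Hippo pathway genes (left) and 21 of the 22 other YAP and TEAD target genes (right) that were tested. Filled points have an edgeR adjusted p under 0.05. In the left panel 9 filled points lie at values over 0 and 11 under 0, from −4.03 (TNIK) to 5.05 (DCHS1), and in the right panel 4 over and 14 under 0, from −4.05 (NT5E) to 5.46 (NUAK2).

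With SF3B2 siRNA 0 of the 29 Hippo genes and 0 of the 22 targets were called by edgeR or by DESeq2, and 0 and 2 had an unadjusted edgeR p under 0.05. Over all genes these shares were 0% by edgeR, 0.194% by DESeq2 and 3.87% at an unadjusted p under 0.05. The Hippo genes with the largest values were WTIP (0.61 ± 0.31) and MOB1A (−0.51 ± 0.34). The targets with the largest values were TGFB2, at 13.3 and 18.5 CPM with control siRNA and 5.54 and 10.4 CPM with SF3B2 siRNA (−0.997 ± 0.40), and AREG, at 39.7 and 20.6 CPM against 19.3 and 11.4 CPM (−0.97 ± 0.39). Both had an edgeR adjusted p of 1.00, and exons of TGFB2 overlap other genes.

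Genes with the most similar course over the 8 libraries were sought for YAP1, WWTR1, CCN1 and CCN2 by the distance between mean-centred log2 CPM profiles, among 11485 other genes. Nearest to CCN1 were PLK2, a polo-like kinase, and KLF10, a zinc finger transcription factor, at distances of 0.37 for both. For CCN2 they were OAT, ornithine aminotransferase, and KMT5A, a histone methyltransferase, at 0.44 and 0.50. Those of WWTR1 were WASHC3, a subunit of the WASH complex, and TTF2, a transcription termination factor, at 0.35 and 0.37. For YAP1 they were the pseudogene NPEPPSP1 and NRIP1, a nuclear receptor cofactor, at 0.27 and 0.29. The distances are in log2 units over libraries that all the genes share, and are set mostly by the pladienolide B libraries for CCN1, CCN2 and WWTR1, whose neighbours had drug log2 fold changes of 2.73 and 2.91, 1.52 and 1.62, and −2.49 and −2.79.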

How the data were processed

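RNA-seq of 8 PC3 libraries was analysed from 1 deposited table of the whole series. The authors deposited a read count per gene and library, not normalized, and TPM per library, per the file headers. The deposited table also holds the authors' own comparisons as a score (a signed fold, where minus marks the inverse ratio of a gene that is lower) and a p-value adjusted by Benjamini-Hochberg, per the file headers. Their test is unstated. Per the submitters' processing notes the build was GRCh38, and edgeR, Bowtie2 2.3.5.1, HISAT2 2.10 and Trimmomatic 0.38 were among the tools. How reads were counted, and on which strand, was not given in the sources used here. A further 16 per-library columns and 6 columns of means were not used.

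The test of counts was that of edgeR 4.0.16 in R 4.3.3 (robust quasi-likelihood F-test, scaling by TMM, filterByExpr at a minimum count of 10, 16488 of 17010 genes), with all 4 groups in 1 fit without covariates and 4 residual degrees of freedom. Tests were two-sided, p-values were adjusted by Benjamini-Hochberg over all genes tested, and genes were called under 0.05. The SE is the absolute log2 fold change over the square root of F. No exact permutation test was run, since 2 libraries a group cannot take it to 0.05. Alternatives were RLE scaling, library size alone, no filter, DESeq2 1.42.0, only the groups compared, the replicate number as a block, and each library left out. The procedure was tested on simulated data in which few genes changed, unlike the pladienolide B comparison, so that test does not bear on the scaling there. No 2 replicates were within sampling noise (chi-square per degree of freedom 54.0 to 295). Positions, exon numbers (of the MANE Select transcript) and overlaps came from GENCODE annotation of GRCh38, and promoters from RefSeq (GRCh38.p14). The 10 genes and both lists were chosen with earlier results of these data known, the lists from general knowledge. The genes named from a list are the 4 highest and 4 lowest called with a mean of at least 5 CPM, or, where 0 were called, the 2 with the largest absolute value; further list genes were named for their role. Some marker and list genes are not reported here.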

Additional observations from a re-analysis of the deposited data

Results flagged for a closer look

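The effects of SF3B2 siRNA and of pladienolide B, each against its own control, differed by edgeR in 8 of the 10 genes, tested as a difference of log2 fold changes with the siRNA effect first. The differences were 2.91 for WWTR1 (adjusted p = 0.000216), 2.29 for TEAD1 (adjusted p = 0.00492), 3.21 for TEAD2 (adjusted p = 0.000219), 2.82 for TEAD3 (adjusted p = 0.000292) and 2.35 for TEAD4 (adjusted p = 0.00185). They were −2.50 for CCN1 (adjusted p = 0.00396), −3.25 for AMOTL2 (adjusted p = 0.000349) and −3.66 for LATS2 (adjusted p = 0.000216). Over all genes 53.7% differed in the same test, and the treatments also differed in duration, which cannot be told apart from the agent.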

How the results depend on the processing

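Of 51 single-gene values, which leave out list genes named for their role, 41 kept their direction and their side of the threshold in every alternative run. The side had little room to change with SF3B2 siRNA, where the main edgeR fit called 0 and DESeq2 33 of all genes. With library size alone the value of YAP1 with pladienolide B became −0.81 and its difference between treatments 0.70, that of CCN2 between treatments 0.030, and that of AMOTL2 with SF3B2 siRNA 5.46e-05. Left out one at a time, the 8 libraries gave values for YAP1 from −0.47 to 0.45 with pladienolide B, from −0.48 to 0.13 with SF3B2 siRNA and from −0.59 to 0.33 for the difference, and for AMOTL2 with SF3B2 siRNA from −0.32 to 0.22. The count of the 10 genes called with pladienolide B was 9 in each alternative other than library size alone, which gave 8, and 0 with SF3B2 siRNA and between the controls in each. For the difference of effects it was 8 to 9 when 1 library was left out, and 8 in the other alternatives. A fit with only the groups compared was not run for it, since it takes in all 4 groups. When 1 library was left out, the median log2 fold change of the Hippo list with pladienolide B ran from −1.12 to −0.31. That of the target list ran from −1.77 to −1.02, and that of all genes from −0.19 to −0.075. In the alternatives with both libraries of each compared group, 9655 to 11759 of all genes tested were called with pladienolide B. For the difference these were 8829 to 9786.

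The labels give replicates with the same number nothing else in common. Over genes their deviations from the group mean correlated positively in all 6 pairs of groups, at 0.395 between SF3B2 and control siRNA, 0.118 between pladienolide B and DMSO, 0.429 between control siRNA and DMSO, and 0.141 to 0.391 in the others. With the replicate block 9 of the 10 genes were called with pladienolide B, 0 with SF3B2 siRNA, 8 for the difference and 0 between the controls. On the lists 22 Hippo genes and 19 other targets were called with pladienolide B. Of all 16488 genes tested the block called 11736 with pladienolide B, 0 with SF3B2 siRNA, 9687 for the difference and 0 between the controls.

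TEAD4, with 30 and 51 reads under the drug, rests on the fewest counts of the 10 genes.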
